A study of Mus musculus with 8 samples.

Results

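The transcription factor NF-kB is a dimer of Rel-family subunits that inhibitors of the IkB family hold in the cytoplasm until a receptor signal, passed on by adaptors and the IkB kinases, releases it. In the canonical branch RelA and c-Rel (the product of Rel) pair mainly with p50 from Nfkb1. In the non-canonical branch RelB pairs with p52 from Nfkb2. Several inhibitors are themselves NF-kB targets, so their transcripts serve as a readout of the pathway, and in neutrophil-like cells NF-kB is best known for driving cytokine and survival genes.

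The genes described here are the 5 subunit genes Rel, Rela, Relb, Nfkb1 and Nfkb2, the inhibitors Nfkbia, Nfkbie, Nfkbiz and Tnfaip3, and Cd83, a surface protein of activated antigen-presenting cells whose gene is a known NF-kB target. They were chosen by name with the drug effects on these arrays already known, so their differences from DMSO are a description and carry no test. Of the 10 genes, 9 had a probe set that the array annotation assigns to 1 gene, out of 18193 genes in the whole table. These 9 genes held 18 probe sets, all of which passed the filter on low signals. Nfkb1 had none and is named only.

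Granulocytic myeloid-derived suppressor cells (Gr-MDSCs) are immature, neutrophil-like cells that restrain T cells. They were isolated with magnetic beads as CD11b+ Ly6G+ Ly6Clow cells from prostate tumors of castrated males, aged 12 to 16 weeks and kept on an enzalutamide diet, that carried PB-Cre+ together with PtenL/L, p53L/L and Smad4L/L, and also the reporter alleles mTmGL/+ and LSL-LucL/+ (the CPPSML model). Right after isolation they received 0.1 uM Dactolisib (a PI3K and mTOR inhibitor, 2 arrays), 0.1 uM Dasatinib (an inhibitor of Src-family and Abl kinases, 2 arrays) or DMSO (4 arrays, numbered 2 to 5) for 6 h. Genotype, castration and diet were common to all 3 groups, and the PB promoter drives Cre in prostate epithelium, so the Gr-MDSCs are not the cells in which it is meant to act. No source says whether replicates came from separate mice or cultures, so SEs and p-values cover the spread of these samples alone, and that spread may be technical. The number of arrays limits the precision.

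The arrays fell into 3 sets by their overall similarity, and the sets crossed the treatments. Set A held Dactolisib 1, DMSO 2 and DMSO 4, set B held Dactolisib 2, Dasatinib 2 and DMSO 3, and set C held Dasatinib 1 and DMSO 5. The lowest Pearson r within a set was 0.987 and the highest between sets 0.98, across 30024 tested probe sets. The granulocyte markers S100a8 and S100a9 were at log2 signals of 13.53 to 13.85 and 13.69 to 14.12, and Itgam (CD11b) was at 9.37 to 10.90. Other granulocyte markers varied more, with Ltf at 9.29 to 12.94, Ngp at 6.70 to 10.45 and Mmp8 at 7.48 to 9.70. The monocyte and macrophage marker Csf1r was also high, at 11.43 to 12.47. Summed signals (log2) were 15.11 to 15.65 for 10 granulocyte markers and 12.71 to 13.38 for 9 monocyte and macrophage markers. S100a8 and S100a9 were the highest of the 10 and lay near the highest value of an array, 14.10 to 14.13. The granulocyte sum therefore says little about the share of granulocytes. Ly6g is not analysed here. The summed signal of 9 epithelial markers (log2) was 15.32 and 15.35 in set C, 12.82 to 13.07 in set A and 10.32 to 10.77 in set B. In set C the epithelial sum was thus no lower than the granulocyte sum, 15.11 on Dasatinib 1 and 15.33 on DMSO 5. Each drug was therefore compared with DMSO both without a block and in a fit that blocks on the array set, called within array sets here. The sets were drawn from these same signals, so SEs and p-values within array sets can be too small. For every drug array, the mean of the DMSO arrays in its set was also subtracted (the own-set difference). In such bulk samples, fewer cells of a type and less RNA per cell cannot be told apart.

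Promoter sequence was taken from the RefSeq table of the GRCm38.p6 build, which gives 250 bases before and 50 bases after each start site and held 9 promoters of 6 of the genes. It held none of Cd83, Relb, Nfkb1 or Nfkbiz, so these were not searched. One spelling of a kB-like motif, GGGNNNTTCC, was searched on both strands, and 8 of the 9 promoters, from 5 of the 6 genes, held a match. Of all 32851 promoters in the table, 5.56% did. The kB consensus in its usual degenerate form matched 7 of the 9 promoters, from the same 5 genes, and 4.51% of all promoters. Both forms were settled on after these promoters had been searched, so the shares are no test of enrichment. The 60-base stretches below show the match (capitals) upstream of the start site, 5′ to 3′ on the strand of the gene, for 1 start site of each of the 5 genes, to show where it recurs among the subunit and inhibitor genes described below.
Nfkbie, chr17:45555559-45555618, plus strand, match at -106 to -97: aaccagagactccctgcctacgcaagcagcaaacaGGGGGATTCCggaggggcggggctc
Nfkb2, chr19:46304677-46304736, plus strand, matches at -38 to -29 and -11 to -2: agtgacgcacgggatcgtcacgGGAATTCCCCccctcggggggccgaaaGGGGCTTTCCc
Rel, chr11:23771036-23771095, minus strand, match at -91 to -82: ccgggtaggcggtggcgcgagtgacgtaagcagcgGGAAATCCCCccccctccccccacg
Nfkbia, chr12:55492652-55492711, minus strand, match at -29 to -20: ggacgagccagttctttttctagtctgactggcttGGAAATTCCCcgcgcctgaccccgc
Tnfaip3, chr10:19015411-19015470, minus strand, match at -12 to -3: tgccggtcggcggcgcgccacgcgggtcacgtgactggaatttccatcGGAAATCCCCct

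Positions count back from -1, the base before the start site. In Nfkbie and the second match of Nfkb2 the motif reads in the printed direction, and in the others it reads on the opposite strand. The promoter of Rela held neither form in this window. A match is a description of the letters and not a binding site, and no binding was measured in these cells.

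Cd83 differed most from DMSO among the genes described. Its log2 signal was 8.54 and 8.83 on Dactolisib 1 and 2, 8.65 and 8.10 on Dasatinib 1 and 2, and 7.48, 8.14, 7.06 and 7.82 on DMSO 2, 3, 4 and 5. Both Dactolisib arrays lay above all 4 DMSO arrays, whereas Dasatinib 2 lay just under DMSO 3 and the 2 groups overlapped. The group means were 8.69 ± 0.21 for Dactolisib (SD, n = 2), 8.37 ± 0.39 for Dasatinib (n = 2) and 7.63 ± 0.46 for DMSO (n = 4). Dasatinib 1 exceeded Dactolisib 1, so the order of the 2 drugs did not hold on every array.

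Within array sets the Cd83 difference between Dactolisib and DMSO was 1.02 ± 0.16 on the log2 scale (limma SE), a 2.03-fold higher signal, and only 3 of the 30024 tested probe sets had a higher difference. Without the block it was 1.06 ± 0.30. The own-set differences were 1.26 on Dactolisib 1 and 0.70 on Dactolisib 2, and the same-set controls DMSO 2 and DMSO 4 themselves differed by 0.42 for this gene. For Dasatinib the difference was 0.39 ± 0.22 within array sets and 0.75 ± 0.33 without the block. This mean joined 2 unlike arrays, with own-set differences of 0.83 on Dasatinib 1 and -0.04 on Dasatinib 2. Set B held 1 array of each treatment, and there Cd83 stood out under Dactolisib alone.

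**Figure D1:**
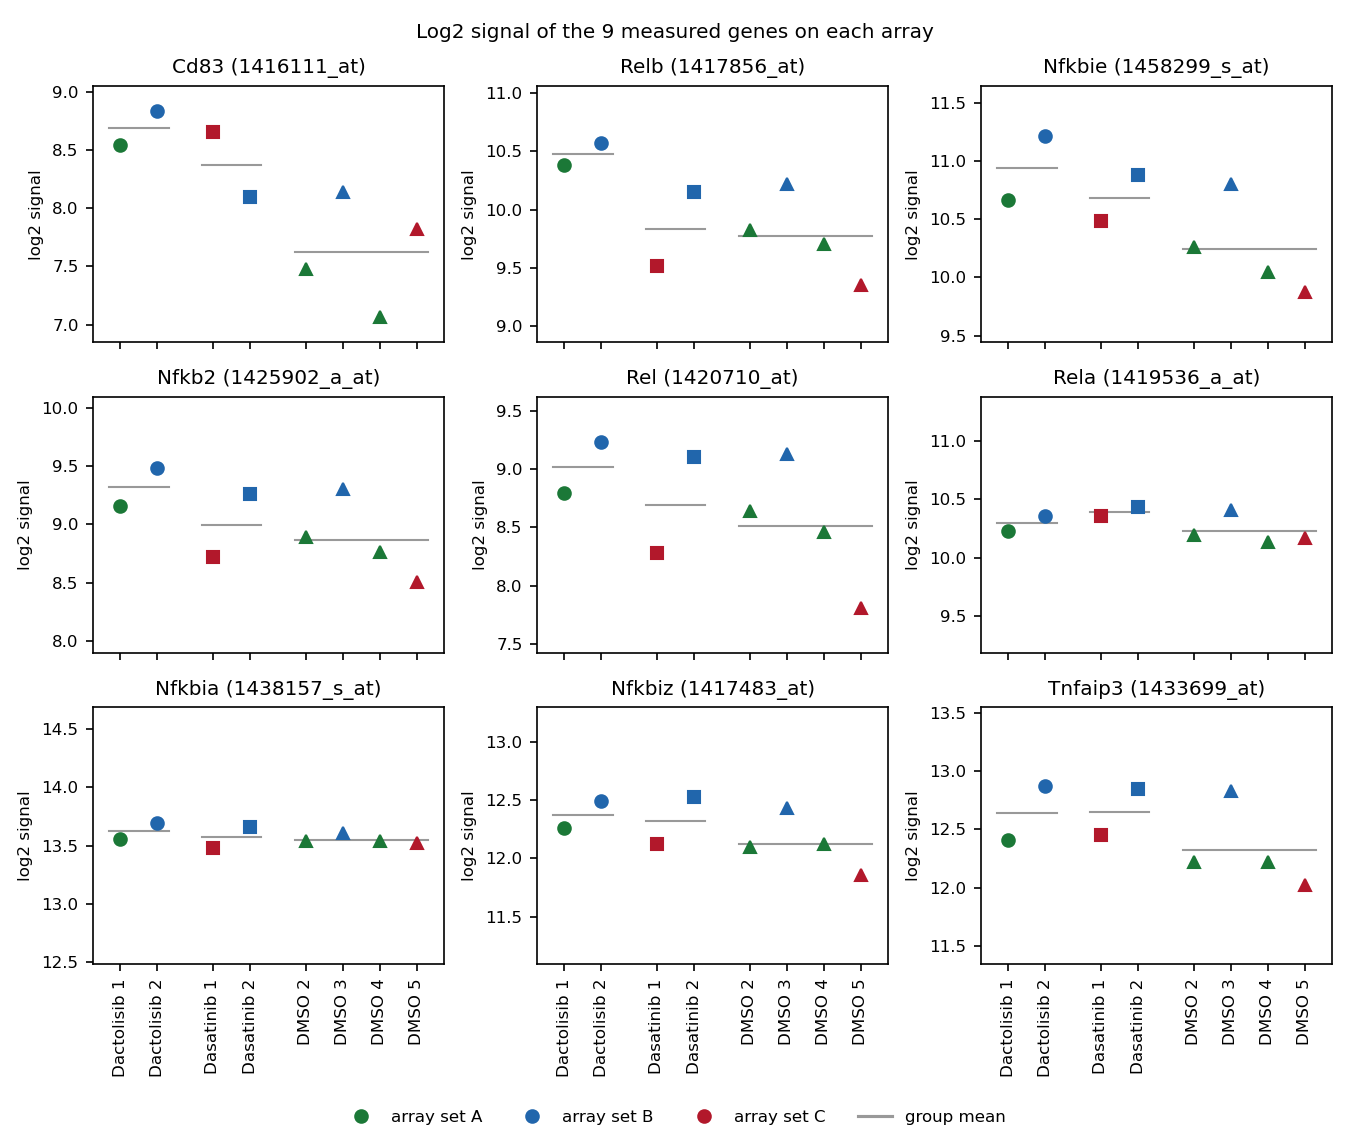
Log2 signal of the best-expressed probe set of each of the 9 genes (y axis, each panel spanning the same 2.2 log2 units) on the 8 arrays (x axis), with color for the array set, shape for the treatment and a gray line for each group mean. Both Dactolisib arrays lie above all 4 DMSO arrays for Cd83 and Relb only, and DMSO 3 of set B is the highest DMSO array in every panel.

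Relb encodes the subunit that needs p52 as its partner in the non-canonical branch. It had log2 signals of 10.38 and 10.57 under Dactolisib, 9.51 and 10.15 under Dasatinib and 9.83, 10.22, 9.71 and 9.35 on DMSO 2 to 5. The 2 Dactolisib arrays were the highest of all 8, and the Dasatinib values lay inside the DMSO range. The Dactolisib difference was 0.51 ± 0.09 within array sets (1.42-fold) and 0.70 ± 0.24 without the block, against 0.05 ± 0.11 and 0.05 ± 0.29 for Dasatinib.

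Nfkb2, the precursor of that p52 partner, had 2 probe sets that disagreed. Probe set 1425902_a_at read 9.16 and 9.49 under Dactolisib, 8.72 and 9.26 under Dasatinib and 8.89, 9.30, 8.77 and 8.51 on DMSO 2 to 5. The groups overlapped, but the own-set differences of Dactolisib 1 and 2 were 0.33 and 0.18. Its Dactolisib difference within array sets was 0.27 ± 0.09. Probe set 1429128_x_at gave 0.00 ± 0.08, and the r of the 2 probe sets was -0.02 over the 8 arrays. Their Dasatinib differences within array sets were 0.09 ± 0.11 for 1425902_a_at and -0.20 ± 0.13 for 1429128_x_at.

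Rel, the c-Rel subunit of lymphoid and myeloid cells, varied with the array set more than with either drug. Its log2 signal was 8.80 and 9.24 under Dactolisib, 8.28 and 9.10 under Dasatinib and 8.64, 9.13, 8.46 and 7.80 on DMSO 2 to 5. The 3 arrays of set B were the highest of all 8 under every treatment, and both arrays of set C were the lowest. The Dactolisib difference was 0.19 ± 0.09 within array sets but 0.51 ± 0.36 without the block. That of Dasatinib was 0.22 ± 0.14 within array sets and 0.18 ± 0.405 without the block.

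Rela, which encodes the main transactivating subunit p65, was nearly flat across arrays. It read 10.23 and 10.36 under Dactolisib, 10.36 and 10.43 under Dasatinib and 10.19, 10.41, 10.13 and 10.17 on DMSO 2 to 5, a span of 0.30 over all 8 arrays. Its Dactolisib difference within array sets, 0.02 ± 0.08, was smaller than its SE, and that of Dasatinib was 0.11 ± 0.10.

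Among the inhibitors, Nfkbie, which encodes IkB-epsilon and retains RelA and c-Rel dimers, differed most. Probe set 1458299_s_at read 10.66 and 11.21 under Dactolisib, 10.48 and 10.88 under Dasatinib and 10.26, 10.80, 10.05 and 9.87 on DMSO 2 to 5. Dactolisib 1 lay below DMSO 3 of another set, so the groups overlapped, yet 3 of the 4 drug arrays were 0.41 to 0.60 above their own-set DMSO arrays. Dasatinib 2 was the exception, at 0.08. The second probe set, 1431843_a_at, followed the first with an r of 0.98 over the 8 arrays. Within array sets the Dactolisib differences of the 2 probe sets were 0.46 ± 0.09 and 0.41 ± 0.09, and those of Dasatinib were 0.34 ± 0.15 and 0.24 ± 0.14.

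Nfkbia encodes IkB-alpha, the classical inhibitor whose resynthesis ends an NF-kB response. Of its 5 probe sets, 4 read 12.75 to 13.71 on every array, close to the highest value of each array, which was 14.10 to 14.13. These 4 differed between Dactolisib and DMSO by 0.01 to 0.07 within array sets, each within 1 SE of 0. The fifth, 1420089_at, read 9.37 and 9.48 under Dactolisib, 9.02 and 9.28 under Dasatinib and 9.29, 9.17, 9.23 and 9.002 on DMSO 2 to 5. Both Dactolisib arrays lay above all other arrays there, with a difference of 0.20 ± 0.09 within array sets. The Dasatinib differences within array sets ran from -0.01 to 0.17 for the first 4 probe sets and were 0.06 ± 0.10 for the fifth. The r between pairs of Nfkbia probe sets ran between -0.32 and 0.98, so the 5 probe sets did not report 1 common pattern.

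Tnfaip3 encodes A20, an enzyme that edits ubiquitin on signaling proteins and shuts the pathway off upstream of the IkB kinases. Probe set 1433699_at read 12.41 and 12.87 under Dactolisib, 12.45 and 12.85 under Dasatinib and 12.22, 12.83, 12.22 and 12.02 on DMSO 2 to 5. All 3 arrays of set B lay together at the top whatever the treatment. The largest own-set difference was on Dasatinib 1, at 0.43, against 0.19 on Dactolisib 1, and the set B arrays differed from DMSO 3 by 0.01 and 0.04. Probe set 1450829_at gave 0.54 on Dasatinib 1 and 0.30 on Dactolisib 1.

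Nfkbiz encodes IkB-zeta, a nuclear member of the IkB family that acts with p50 on secondary response genes. Its best-expressed probe set, 1417483_at, read 12.26 and 12.49 under Dactolisib, 12.12 and 12.53 under Dasatinib and 12.10, 12.43, 12.12 and 11.86 on DMSO 2 to 5. The groups overlapped, and the 3 arrays of set B were again the highest. The 3 Nfkbiz probe sets differed between Dactolisib and DMSO by 0.09 to 0.14 within array sets, with SEs of 0.08 to 0.09. The Dasatinib differences within array sets were 0.19 ± 0.10 for 1417483_at, 0.24 ± 0.10 for 1448728_a_at and -0.09 ± 0.11 for 1457404_at.

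**Figure D2:**
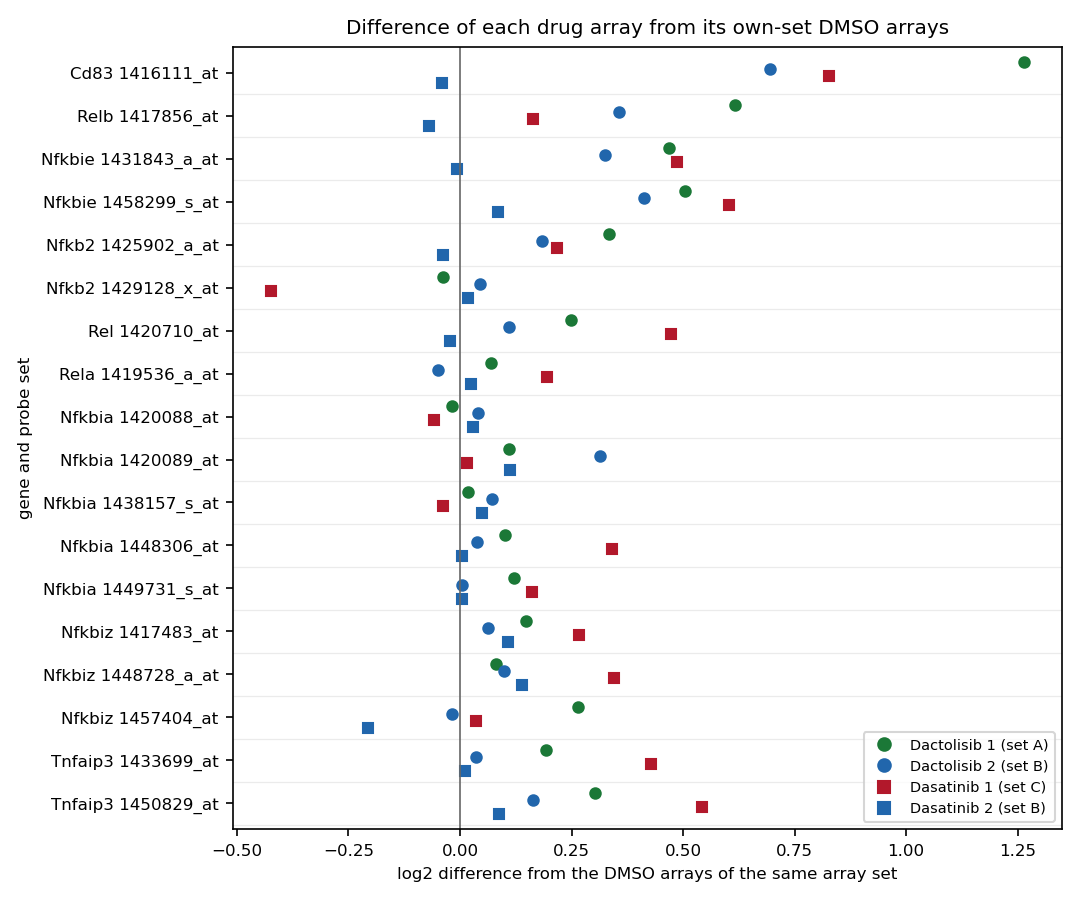
Own-set log2 difference of the 4 drug arrays (x axis) for each of the 18 probe sets (y axis), with shape for the drug and color for the array set. Cd83, Relb and both Nfkbie probe sets lie farthest to the right on the 2 Dactolisib arrays, while the points of Dasatinib 2 lie between -0.21 and 0.14.

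Across the 18 probe sets, 14 were higher on both Dactolisib arrays than on their own-set DMSO arrays and 0 were lower on both. Of all tested probe sets, 32.1% were higher on both. The median own-set difference of the 18 was 0.17 on Dactolisib 1 and 0.09 on Dactolisib 2, beside -0.01 and 0.00 over all tested probe sets. For Dasatinib, 9 of the 18 were higher on both arrays and 0 lower on both, beside 22.3% higher on both over all tested. The Dasatinib arrays were unlike each other here: the median of the 18 was 0.24 on Dasatinib 1 and 0.01 on Dasatinib 2, where all tested probe sets had 0.00 and -0.01. Because these probe sets were selected on the same arrays, nothing is read from these counts beyond the description.

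With limma and a threshold of adjusted p of 0.05 over all tested probe sets, 4 of the 18 passed as higher under Dactolisib within array sets, namely Cd83, Relb and both of Nfkbie, and 0 as lower. Over all tested probe sets, 2.19% passed as higher and 4.2% as lower. The block was drawn from the same signals and the genes were chosen with the drug effects known, so these calls are a description. Without the block 0% passed in either direction, and 2 of the 18 were higher at an unadjusted p under 0.05, with 868 higher and 1005 lower over all. The full fit within array sets has 2 residual degrees of freedom, and its calls did not hold without Dactolisib 1, Dactolisib 2 or DMSO 3. Without Dactolisib 1 only set B, and without Dactolisib 2 or DMSO 3 only set A, holds both treatments. Both Dactolisib arrays lay above all 4 DMSO arrays for 3 of the 18 probe sets (Relb, Cd83 and 1420089_at of Nfkbia), beside 11.4% of all tested.

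For Dasatinib limma passed 0% of the tested probe sets in both fits. At an unadjusted p under 0.05, 0 of the 18 were past without the block (52 higher and 58 lower over all) and 1 was higher within array sets (638 higher and 826 lower over all). Both Dasatinib arrays lay above all 4 DMSO arrays for 0 of the 18, beside 1.9% of all tested.

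**Figure D3:**
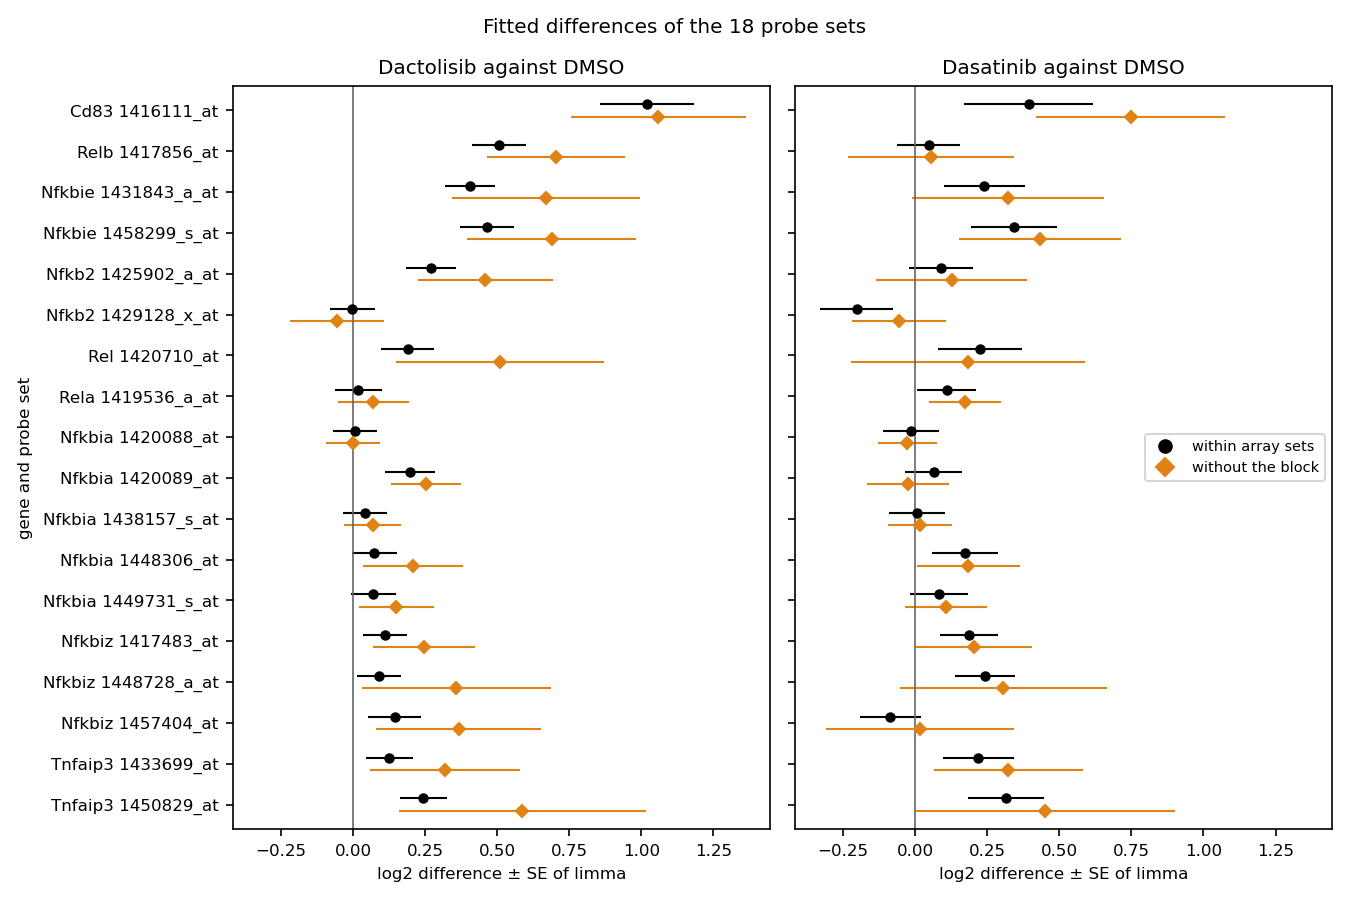
Log2 difference from DMSO with the SE of limma as a bar (x axis) for each of the 18 probe sets (y axis), for Dactolisib on the left and Dasatinib on the right, within array sets (black circles) and without the block (orange diamonds). The block shortens the bars, for Relb under Dactolisib to 0.09 against 0.24, and leaves Cd83 at 1.02 against 1.06.

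Dactolisib and Dasatinib were compared directly in a fit of all 8 arrays, at the same dose and time. Cd83 was 0.66 ± 0.24 higher with Dactolisib than with Dasatinib within array sets and 0.31 ± 0.36 without the block. Relb was 0.45 ± 0.12 higher with Dactolisib within array sets, and its 2 Dactolisib arrays lay above its 2 Dasatinib arrays. Within array sets these were the largest differences of the 18 probe sets, whose median was 0.03, beside 0.00 over all tested. In that fit Rela and some probe sets of Tnfaip3, Nfkbiz and Nfkbia were lower with Dactolisib than with Dasatinib. Limma passed 0% of the tested probe sets for this contrast in both fits, with 1606 higher and 2681 lower at an unadjusted p under 0.05 within array sets, and 459 and 633 without the block. The comparisons of the 2 drugs with DMSO share all 4 DMSO arrays without the block and DMSO 3 within array sets.

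The levels of these genes under DMSO differed between the array sets. DMSO 3 was the only DMSO array of set B and DMSO 5 the only one of set C, so set and single array cannot be told apart there. DMSO 3 was the highest DMSO array for 15 of the 18 probe sets and DMSO 5 the lowest for 14, where over all tested probe sets the shares were 35% and 49.8%. DMSO 3 exceeded DMSO 5 by 1.32 for Rel (2.5-fold), 1.42 and 0.82 for the 2 probe sets of Tnfaip3 and 0.87 for Relb, against 0.31 for Cd83. DMSO 2 and DMSO 4, which share set A, differed by a median of 0.06 over the 18 probe sets, and Cd83 had the largest gap. DMSO 5 also carried the highest epithelial marker sum and DMSO 3 the lowest among the DMSO arrays, and the part of this in the levels was not tested.

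Marker genes of other cells were read beside these results, since Cd83 is also a marker of mature dendritic cells and activated B cells. The summed log2 signal of 11 dendritic cell markers was 10.24 and 10.23 under Dactolisib, 10.60 and 10.42 under Dasatinib and 10.25 to 10.50 under DMSO. Itgax and H2-Ab1 had the highest signals of the 11, at 8.23 to 9.42 and 8.12 to 8.90. Ccr7, Xcr1, Ccl22 and Zbtb46 read 4.14 to 4.97, near or below the array medians of 4.82 to 4.87. The sum therefore cannot show whether the share of dendritic cells changed. Within array sets limma passed 0 of the 11 as higher and 1 as lower under Dactolisib, Itgax (CD11c) at -0.55 ± 0.09 with an adjusted p of 0.0183. Beside 2.19% higher and 4.2% lower over all tested probe sets, a single call is no result about the list. Ccr7, which mature dendritic cells use to home to lymph nodes, read 4.43 and 4.72 under Dactolisib, 4.28 and 4.22 under Dasatinib and 4.34, 4.27, 4.15 and 4.33 on DMSO 2 to 5. The summed signals of 6 B cell markers ranged over 7.13 to 7.28 under Dactolisib, 6.90 to 7.26 under Dasatinib and 6.93 to 7.14 under DMSO. All B cell markers but Pax5 read below the array medians, so these sums say little about B cells. The summed signals of 7 T cell markers ranged over 8.23 to 8.33, 8.16 to 8.26 and 8.24 to 8.36, and 0 of the tested B and T cell markers passed.

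Under Dactolisib within array sets, limma passed 0 monocyte and macrophage markers as higher and 3 of 9 as lower (Cx3cr1, C1qa and C1qc), 0 granulocyte markers as higher and 1 of 10 as lower (Cxcr2), and 0 epithelial markers as higher and 2 of 9 as lower (Cdh1 and Cldn4). Over all tested probe sets 2.19% passed as higher and 4.2% as lower, so the single granulocyte call is no result about that list. On Dasatinib 1 the median own-set difference of the monocyte and macrophage markers was 0.22, and on Dasatinib 2 it was -0.12. The granulocyte markers had medians of -0.13 on Dasatinib 1 and 0.00 on Dasatinib 2. Single markers differed far more between Dasatinib 1 and DMSO 5: the granule protein genes Ngp and Mmp8 were at -2.25 and -1.60, the basal keratins Krt5 and Krt14 at -1.62 and -1.46, and Itgax at 1.13. On Dasatinib 2 these 5 genes were at -0.07, -0.01, 0.14, 0.98 and -0.21. The difference between 3′ and 5′ control probe sets of Gapdh and Actb, a sign of RNA quality, departed from its own-set DMSO value by -0.05 to 0.04 on the drug arrays. The part of these shifts in the differences of the NF-kB genes was not tested.

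The rest of the pathway was read from 4 lists of other genes. Each listed gene was counted by its best-expressed probe set, whereas the shares set beside the lists count every tested probe set. Of 19 receptors and adaptors tested, 2 rose and 1 fell under Dactolisib within array sets, beside 2.19% higher and 4.2% lower over all tested probe sets. Irak2, a kinase-like adaptor of the interleukin-1 and Toll-like receptors, read 11.54 and 11.71 under Dactolisib and 11.01, 11.34, 10.87 and 10.49 on DMSO 2 to 5, and it rose by 0.50 ± 0.09 (limma adjusted p = 0.0258). Traf2, an adaptor of TNF receptors, rose by 0.44 ± 0.08 (limma adjusted p = 0.0221), with values of 8.09 and 8.29 under Dactolisib and 7.65 to 7.86 under DMSO. Tirap, which links Toll-like receptors to MyD88, fell by 0.35 ± 0.08 (limma adjusted p = 0.0488), whereas Tlr4 itself, at -0.28 ± 0.08, did not pass.

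Of 10 kinases tested, 0 rose and 1 fell, again beside 2.19% higher and 4.2% lower over all, so a single call is no result about the list. Map3k14, the NF-kB-inducing kinase that starts the non-canonical branch, fell by 0.36 ± 0.08 (limma adjusted p = 0.0433), with 6.60 and 6.44 under Dactolisib and 6.98, 6.83, 6.88 and 6.12 on DMSO 2 to 5. The groups overlapped through DMSO 5, which shares no set with a Dactolisib array. Map3k8 (Tpl2, a kinase bound to p105) was at 0.35 ± 0.08 with a limma adjusted p of 0.0518, Ikbkg (NEMO, the regulatory subunit of the IkB kinase complex) at -0.37 ± 0.10 and Tbk1 (a kinase related to the IkB kinases) at 0.19 ± 0.08, and none of these passed.

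Of 18 other inhibitors and regulators tested, 0 rose and 1 fell, which is near the 4.2% lower over all tested probe sets. Commd1, which promotes turnover of RelA, fell by 0.48 ± 0.08 (limma adjusted p = 0.0223), with 6.21 and 5.71 under Dactolisib and 6.63, 6.31, 6.60 and 7.18 on DMSO 2 to 5. Nfkbid (IkB-NS, another nuclear IkB protein) was at 0.28 ± 0.08, Cyld (a deubiquitinase) at 0.24 ± 0.08 and Nkiras1 (a small GTPase that binds IkB proteins) at -0.26 ± 0.09, and none of these passed.

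Of 36 target genes tested, 3 rose and 1 fell, beside 2.19% higher and 4.2% lower over all tested probe sets, and nothing particular to the list is read from these counts. Cd274, which encodes the checkpoint ligand PD-L1, rose by 0.63 ± 0.09 (limma adjusted p = 0.0152), with 11.90 and 12.44 under Dactolisib and 11.21, 11.96, 11.12 and 11.01 on DMSO 2 to 5. Plau, the urokinase protease, rose by 0.66 ± 0.10 (limma adjusted p = 0.0158), although DMSO 5 at 8.43 stood above both Dactolisib arrays at 6.64 and 7.35. Gadd45b, a stress-response protein, rose by 0.43 ± 0.09 (limma adjusted p = 0.0413). Mmp9, a gelatinase stored in neutrophil granules, fell by 0.62 ± 0.08 (limma adjusted p = 0.0119), with 10.89 and 10.69 under Dactolisib and 11.60, 11.25, 11.50 and 10.21 on DMSO 2 to 5.

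The median own-set differences of the target list were 0.09 and 0.04 on Dactolisib 1 and 2, beside -0.02 and 0.00 over all 14237 genes, and those of the receptors and adaptors were -0.03 and -0.04. Without the block 0 genes of the 4 lists passed under Dactolisib, with 4 higher and 3 lower at an unadjusted p under 0.05. Leaving out Dactolisib 1, Dactolisib 2 or DMSO 3 left 0 of the 9 genes passing within array sets.

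Under Dasatinib 0 genes of the 4 lists passed in either fit. At an unadjusted p under 0.05, 2 target genes were higher and 1 was lower within array sets, and 2 target genes were higher without the block. The values of Ccl5, a T cell-attracting chemokine, were 10.07 and 8.94 on Dasatinib 1 and 2 and 8.16, 8.91, 8.11 and 8.84 on DMSO 2 to 5, with a difference of 0.63 ± 0.25 within array sets. Only Dasatinib 1 stood apart. Il6, an inflammatory cytokine, was at 0.45 ± 0.13, Saa3, an acute-phase protein, at -1.26 ± 0.51 and Cxcl10, an interferon-induced chemokine, at 0.40 ± 0.18, each with a limma adjusted p of 0.85. For Saa3 the 2 arrays were at own-set differences of -2.55 and 0.03. Il6 read 7.08 and 4.355 on Dasatinib 1 and 2 and 5.21, 3.99, 4.90 and 6.53 on DMSO 2 to 5. Both Dasatinib 2 and DMSO 3, its own-set control, thus read Il6 below their array medians.

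The receptors and adaptors with the lowest p under Dasatinib were Il1rap (the coreceptor of interleukin-1) at 0.27 ± 0.12, Tlr2 (a receptor of bacterial lipoproteins) at 0.34 ± 0.16, Myd88 (the shared adaptor of both receptor families) at 0.21 ± 0.11 and Tlr4 (the endotoxin receptor) at 0.25 ± 0.15. The kinases with the lowest p were Map3k8 at 0.20 ± 0.12, Ikbke (a kinase related to the IkB kinases) at 0.27 ± 0.16, Tab3 (a partner of the kinase TAK1) at 0.15 ± 0.11 and Ikbkg at -0.15 ± 0.12. Among the other inhibitors and regulators they were Tnip1 (ABIN-1, a partner of A20) at 0.24 ± 0.14, Bcl3 (a nuclear IkB protein that binds p50 and p52) at 0.36 ± 0.21, Nfkbil1 at 0.19 ± 0.13 and Birc2 (cIAP1, a ubiquitin ligase) at 0.14 ± 0.10. Most of these means came from Dasatinib 1: the median own-set differences on Dasatinib 1 and 2 were 0.13 and 0.00 for the receptors and adaptors, 0.20 and -0.06 for the kinases, 0.18 and 0.00 for the other inhibitors and regulators and 0.28 and 0.01 for the target genes.

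**Figure D4:**
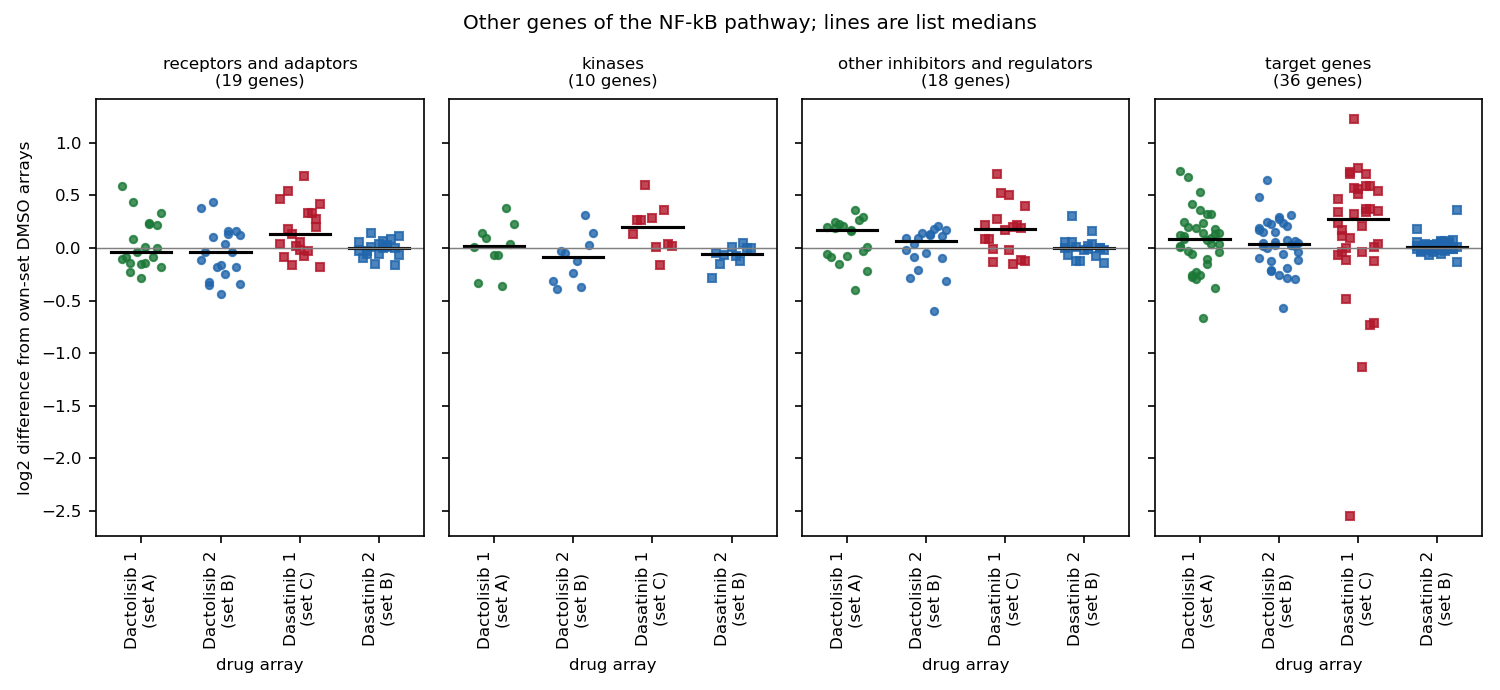
Own-set log2 difference (y axis) for each tested gene of the 4 pathway lists (panels), by drug array (x axis), with a black line at the list median. The points of Dasatinib 2 lie between -0.28 (Ikbkb) and 0.36 (Il6), and the target genes have medians of 0.09, 0.04, 0.28 and 0.01 on the 4 arrays from left to right. The Il6 signal lies below the array median on both Dasatinib 2 and DMSO 3.

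The genes whose log2 signal followed Cd83 most closely over the 8 arrays were Esco1 (a cohesin acetyltransferase, r = 0.98), Atf3 (a stress-induced transcription factor, r = 0.98), Cipc (a repressor of the circadian clock, r = 0.96), Qtrt1 (a subunit of a tRNA-modifying enzyme, r = 0.96) and Slc22a18 (a membrane transporter, r = 0.95), out of 14236 genes. Atf3 read 12.07 and 12.24 under Dactolisib, 12.05 and 11.86 under Dasatinib and 11.58, 11.87, 11.53 and 11.69 on DMSO 2 to 5. With the mean of each array set subtracted, the closest were Foxp1, Flcn, Nfkb2, Agt and Cflar, with r between 0.996 and 0.999. Nfkb2 stands here for probe set 1425902_a_at, which its other probe set did not follow (r = -0.02 over the 8 arrays). Foxp1 is a forkhead transcription factor, Flcn the tumor suppressor folliculin, Agt the precursor of angiotensin, and Cflar an inhibitor of caspase activation. Relb and Nfkbie then had an r of 0.96 with Cd83, against 0.50 and 0.73 over the 8 arrays as they stand, while Rela had 0.55 and 0.65. These values rest on 8 arrays that share treatments and array sets, and they describe likeness of pattern only.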

How the data were processed

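The authors deposited 1 table of log2 signals of 45101 probe sets of an Affymetrix mouse genome array, 1 array per sample. The sources disagree on the summary (MAS5 in the submitters' notes, oligo in the study's methods) and on the extraction (Trizol in the labels, RNeasy in the methods). The values were used as deposited. Treatments came from the array titles, because another label of both Dasatinib samples names Dactolisib. Probe sets were joined to genes through the platform annotation (34945 with 1 gene, 932 with several, 9160 with none, 64 controls), with symbols updated through gene identifiers.

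The upper 66.7% of probe sets by mean signal were tested (30024 probe sets, 14237 genes) with limma 3.58.1 in R 4.3.3, with Benjamini-Hochberg adjustment over all of them. The first fit had no block, as in the methods, and the second had the array set (average linkage on 1 minus Pearson r) as a block. That block sets Dactolisib against DMSO 2, 3 and 4, and Dasatinib against DMSO 3 and 5. A listed gene is represented by its best-expressed single-gene probe set. The text names all 10 genes, up to 4 genes of each pathway list per drug with the lowest p within array sets, and the 5 genes most like Cd83, with and without the array set means. Cell type markers are named where they passed or define the type, and 5 markers far apart between Dasatinib 1 and DMSO 5, with Ikbkb, were singled out after their values were seen. The genes and lists were chosen with earlier results of these data known. The fits were tested on simulated data. Alternatives were quantile normalization, 32 added before log2, other filters, a trended and robust prior, averaging the probe sets of each gene, the methods' t-test, all 8 arrays in 1 fit, a replicate block for the 2 drugs and each array left out. Promoters were searched by exact letters, with the motif forms settled on after the promoters had been searched.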

Additional observations from a re-analysis of the deposited data

How the results depend on the processing

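The shares over all tested probe sets given above are those of the main fits. They are not given for the alternatives, so the counts below cannot be set beside them and are a description only. Within array sets, the count of the 18 NF-kB and Cd83 probe sets passing under Dactolisib was 4. It was 6 with 32 added before log2, with a stricter signal filter or with a trended and robust prior, 3 with no filter, 2 with all 8 arrays in 1 fit and 0 to 4 with 1 array left out, being 0 without Dactolisib 1, Dactolisib 2 or DMSO 3. Of the other pathway genes 9 passed, against 22 with 32 added before log2, 21 with a stricter signal filter, 30 with a trended and robust prior and 0 to 14 with 1 array left out. The other 5 comparisons passed 0 of the 18 under the alternatives run. The replicate block, on the 4 drug arrays, also gave 0 for Dactolisib against Dasatinib; a drug and DMSO share 1 number, so no such block could be fitted there. Of 468 alternative differences of single genes, 408 moved by less than the spread between replicates, 60 moved by more and 0 changed the sign of a called value. Signs did change among values that were not called. Under Dasatinib this held within array sets for Cd83, Nfkb2, Nfkbia, Rel and Relb. Without the block it held for Nfkb2, Nfkbia, Nfkbiz, Rel and Relb. Under Dactolisib the sign changed for Rela within array sets. With 1 array left out, Cd83 within array sets lay between 0.70 and 1.26 under Dactolisib and between -0.04 and 0.83 under Dasatinib. The causes were not tested.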
